A study of Mus musculus with 16 samples.

Results

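Chemokine ligands and chemokine receptors were followed across libraries labelled as sorted brain microglia of young and old mice. Members were taken by symbol alone, as the genes named Ccl or Cxcl (ligands) or Ccr or Cxcr (receptors) followed by a number, with or without a closing letter for ligands. Another 3 symbols of this form were not included. The rule gave 49 of the 35869 genes listed, and no expression value entered it. There were 35 ligands, 22 of the CC and 13 of the CXC class, and 14 receptors, 9 of the CC and 5 of the CXC class.

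The cells came from brains of WT C57/Bl6 mice, either young (2 months) or old (18 months), which the study's legend describes as male and combined 3 to a replicate. All were cultured with 2.5 µM of fluorescent amyloid-beta peptide (Aβ42) for 2 h, and live CD45int CD11b+ cells were then sorted into those that carried the label (Aβ42+) and those that did not (Aβ42−). The 16 libraries of polyA RNA give each age an Aβ42+ and an Aβ42− group, with 4 replicates in each of the 4 groups. Same-numbered Aβ42+ and Aβ42− libraries of an age are, by their titles, sorts of the same pool, so uptake was compared between sister sorts and age between different pools. The sources leave a few points unsettled. The methods text speaks of mice where the legend speaks of pools, and the sample descriptions list the peptide for Aβ42+ libraries only while the protocol gives it to all. Libraries of cells without Aβ42 were not analysed here.

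Chemokines are small secreted proteins that attract leukocytes along a gradient, and their classes are named after the spacing of conserved cysteines near the start of the protein. They act through G protein-coupled receptors, and most inflammatory members share receptors in overlapping sets. Microglia and the macrophages at the borders of the brain are known sources of CC chemokines when activated, and digestion and culture of brain tissue are known to raise such genes. The gate used also admits other myeloid cells of the same surface phenotype.

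Values are TPM, a measure of transcript abundance that divides reads by gene length and by the library total. They are scaled so that genes can be compared. Duplicate reads were removed, however, which can compress abundant genes, so comparisons of level between genes carry that limit. TPM keep no read depth, so no counting interval or detection limit can be given. A background level was taken from olfactory and vomeronasal receptor genes, which have no known role in microglia, as their mean after trimming 10% at each end. It ran from 0.328 to 11.6 TPM over the libraries, highest in old Aβ42+ replicate 3, and its group means were 3.46 (Aβ42+) and 3.69 TPM (Aβ42−) in young against 5.77 (Aβ42+) and 1.31 TPM (Aβ42−) in old mice. Summed markers of microglia were 2408–2863 TPM in young Aβ42+, 2303–2388 in young Aβ42−, 1381–2148 in old Aβ42+ and 1059–1792 in old Aβ42− libraries, so the labelled cell type was present in each. The 7 neutrophil markers (S100a8, S100a9, Retnlg, Mmp8, Ltf, Ngp and Camp) summed to 2566–3416 TPM in young Aβ42+, 5332–7345 in young Aβ42−, 3103–5780 in old Aβ42+ and 5678–7967 in old Aβ42− libraries. This was more than the microglia markers in every library except young Aβ42+ replicate 1, where the sums were 2862 and 2863 TPM. All neutrophil markers but S100a9 were called higher in young Aβ42−. None was called by limma between the old sorts, where 2 had an unadjusted p under 0.05, as had 14747 of the 32429 genes tested. Granulocyte precursor markers (Elane, Mpo, Prtn3 and Ctsg) summed to 72.2–136 TPM in Aβ42+ libraries of young and 141–781 of old mice, against 1044–1767 and 1676–2865 in the Aβ42− sorts. NK cell markers were also higher in the Aβ42− sorts, at 257–408 against 13.4–48.5 TPM in young and 100.3–184 against 14.7–55.9 in old mice. Border macrophage markers were lower there, at 63.0–95.5 against 153–219 and 76.7–131 against 234–285. What these cells and the background contributed to the values below was not tested, and in bulk RNA fewer cells of a type and less RNA per cell cannot be told apart.

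Out of a library total of 1000000 TPM, the summed level of the ligands was 4876–5364 TPM in young Aβ42+, 4056–4249 in young Aβ42−, 3573–5124 in old Aβ42+ and 3220–4115 in old Aβ42− libraries. The 5 most abundant ligands carried 65.7–71.0% of it in every library. Ccl3, a macrophage inflammatory protein that binds Ccr1, was the highest member and ranked 19 among all genes, with a mean over the libraries of 1009 TPM. It was followed by its neighbour Ccl4, another macrophage inflammatory protein, at 554 TPM and by the neutrophil attractant Cxcl2 at 528 TPM. The monocyte attractant Ccl2 had 481 TPM and the interferon-inducible Cxcl10 378 TPM. Ligands with a mean of at least 100 TPM were 10 in number, the others being Ccl6 (320), Cxcl16 (247), Ccl7 (236), Ccl9 (194) and Ccl12 (140 TPM). Cxcl2 and Ccl4 are close in this order and their ranges over the libraries overlapped, as did those of Ccl7 and Cxcl16.

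**Figure D1:**
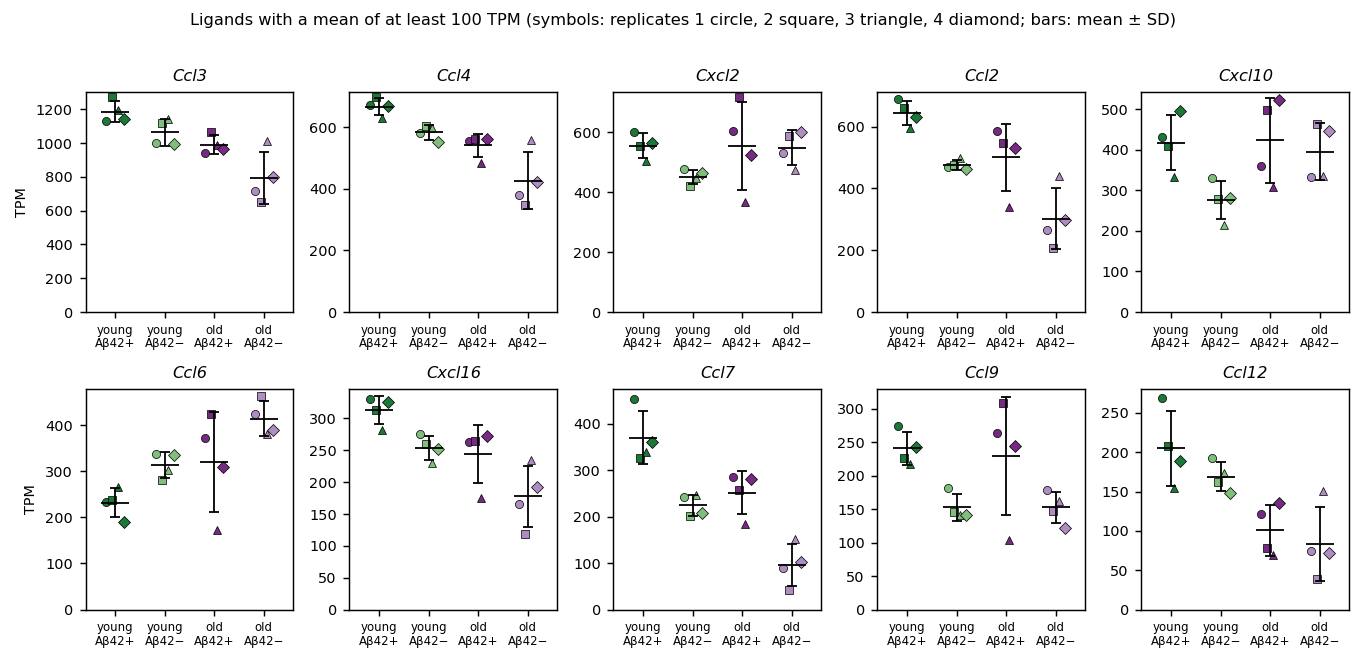
TPM (linear axes from 0) of the 10 ligands with a mean of at least 100 TPM in each library of the 4 groups, with the symbol giving the replicate number and the bars the group mean ± SD of 4 libraries. Ccl7 lay at 328–454 TPM in young Aβ42+ and at 42.0–151 TPM in old Aβ42− libraries, while Ccl6 had its highest mean in old Aβ42−.

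Below these, Cxcl3 (62.1), Ccl22 (46.5), Cxcl1 (39.7), Cxcl14 (9.92) and Cxcl11 (9.08 TPM) completed the 15 most abundant ligands. To separate measured members from genes that only share the background, each was set against the 95th percentile of the olfactory and vomeronasal receptor genes of the same library, a limit of 1.70–27.9 TPM chosen after the values were seen. Of the ligands, 12 were above it in all 16 libraries, 17 in some and 6 in none. Of the receptors, 2 were above it in all, 11 in some and 1 in none. The 24 members outside the naming rule had means between 0.999 and 11.6 TPM.

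Receptor levels were lower, with a sum of 319–674 TPM per library. Of those followed, Ccr1 (182) and Cxcr4 (151 TPM) had a mean of at least 100 TPM. Ccr1 binds CC chemokines such as Ccl3, and Cxcr4 is the receptor of Cxcl12, which holds leukocytes in bone marrow and tissue. Ccr7, which guides cells to lymph nodes, had 31.5 TPM, Cxcr3, the receptor of Cxcl9 to Cxcl11, 23.1 TPM, and the monocyte receptor Ccr2 21.9 TPM. Cxcr5, the receptor of Cxcl13 on B cells, had 18.6 TPM and Ccr10 18.3 TPM. Ccr8 followed at 12.1 TPM. The last 6 overlapped in range, so their order is not resolved.

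**Figure D2:**
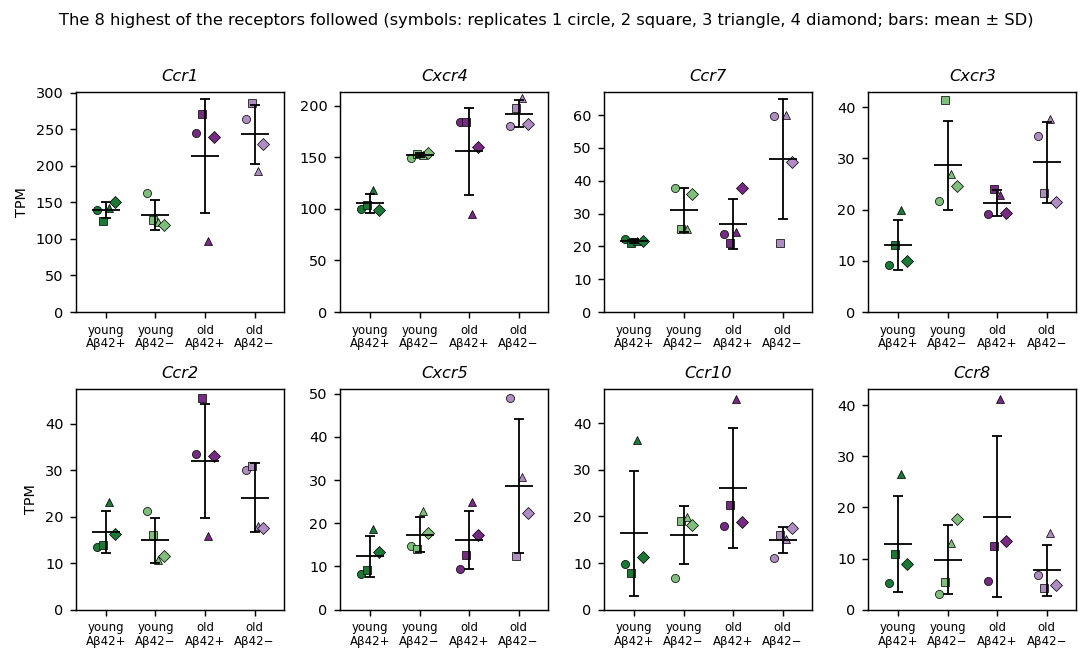
TPM (linear axes from 0) of the 8 highest of the receptors followed in each library of the 4 groups, with the symbol giving the replicate number and the bars the group mean ± SD of 4 libraries. Cxcr4 did not overlap between the young sorts (99.2–119 and 150–154 TPM), and Ccr1 did not overlap between young and old Aβ42− libraries (118–162 and 193–286 TPM).

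Levels of ligands and of their receptors were not matched in these cells. Ccl3, Ccl6 and Ccl9 were present with Ccr1. Ccl2 at 481 TPM stood beside 21.9 TPM of Ccr2. Cxcl16, a membrane-bound ligand of Cxcr6, had 247 TPM while Cxcr6 had 11.6 TPM. For Cxcr4 the receptor was the higher of the pair, since its ligand Cxcl12 had 6.73 TPM and was above the background limit in 1 library.

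Some values carry an uncertainty of annotation. By position in the RefSeq annotation of mm10, 13 members lie on chromosome 11, among them the cluster from Ccl2 (chr11:82035577-82037452) to Ccl1 (chr11:82176666-82179812), 11 on chromosome 5 and 8 on chromosome 9. The spans of 18 members overlap another annotated gene. Ccl3 and Ccl4 share 755 bases, Ccl6 lies wholly (5202 bases) within the span of a lncRNA gene, and Cxcl10 and Cxcl11 lie in that of Art3. Cxcl11 is annotated as a transcribed pseudogene, the only member that is not listed as protein-coding, so its values are transcript levels of that locus and give no level of a ligand. The library kit marks strand, but the use of strand in counting is not given in the sources used here, so the split between such genes is uncertain. The near-identical copies Ccl21a and Ccl21b, and Ccl27a and Ccl27b, were at 0.00–7.83 TPM and 0.214–3.89 TPM, and the split of reads between copies is uncertain as well.

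Between the sorts of young mice, 6 of 48 members tested were called, against 1.67% of all 33281 genes tested. Tests were limma's moderated test on log2(TPM + 1), a gene entered when 4 or more of the compared libraries reached 1 TPM, and a call is a Benjamini-Hochberg adjusted p of at most 0.05 over all genes. Differences are given on the log2(TPM + 1) scale, which understates the change of low genes, with a standard error. Of these calls, 5 ligands were lower in Aβ42− (0.243% of all genes were called lower) and the receptor Cxcr4 was higher (1.43%). In old mice, 6 of 46 members tested were called, against 13% of all genes, and these were 6 ligands lower in Aβ42− (8.23% of all genes were called lower). The median difference of all genes was 0.04 in young and -0.89 in old mice, so a fall in the old sort has to be read against that shift. Groups did not overlap for 15 members in young mice (5.65% of all genes) and for 9 in old mice (21.9%), all 9 lower in Aβ42− (13.8%). Of the young calls, those of Cxcr4, Cxcl3, Ccl2, Ccl7 and Ccl9 were lost both when TMM scaling was applied and when all 16 libraries shared the fit. All 6 calls of the old sorts were lost with the background level as a covariate.

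**Figure D3:**
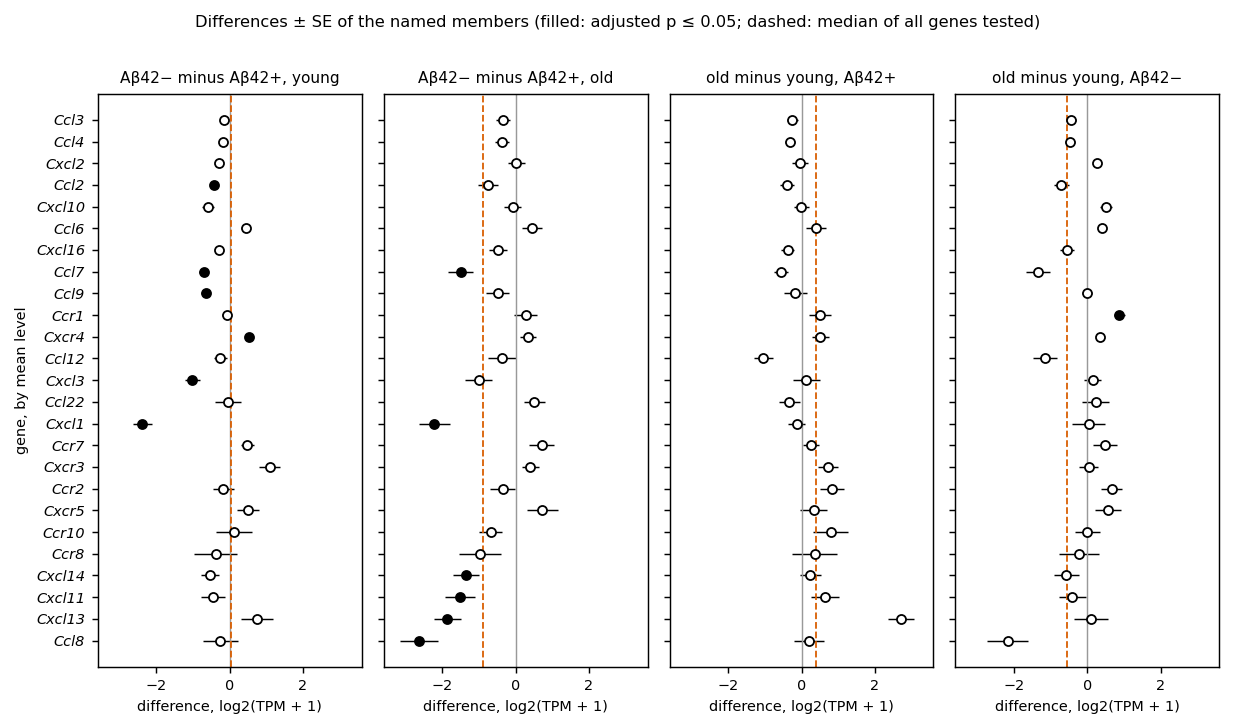
Differences on the log2(TPM + 1) scale ± standard error of the 25 named members, by falling mean level, in the 4 comparisons. Filled points passed the threshold, the grey line marks no difference and the dashed line the median of all genes tested (-0.89 in the old uptake comparison), and Cxcl1 lies far below that line at both ages.

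Among neutrophil attractants, Cxcl1 differed most between the sorts. It had 63.3, 48.4, 85.2 and 78.8 TPM in young Aβ42+ replicates 1 to 4 and 11.3, 9.21, 10.99 and 18.6 TPM in young Aβ42−. The old libraries had 80.2, 49.7, 52.2 and 69.3 TPM in Aβ42+ and 4.14, 15.1, 22.0 and 16.3 TPM in Aβ42−. All 8 Aβ42+ libraries lay above all 8 Aβ42− libraries, whatever the age. The group means were 68.9 ± 16.5 and 12.5 ± 4.15 TPM (SD, n = 4), 5.51-fold apart, in young and 62.8 ± 14.5 and 14.4 ± 7.47 TPM, 4.37-fold apart, in old mice. The difference was -2.38 (SE 0.25, limma, adjusted p = 0.00155) in young and -2.22 (SE 0.42, limma, adjusted p = 0.023) in old mice, the latter 1.32 below the median of all genes. In young mice the call held in all 10 other settings and in each of 8 fits without a library. Among old libraries it was also lost with TMM factors, and it was lost without any of 4 libraries (old Aβ42+ replicates 2 and 4, old Aβ42− replicates 2 and 4), with adjusted p from 0.00893 to 0.0805 over the 8 fits.

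Cxcl3, which lies in the same cluster, was lower as well. It had 84.6, 63.8, 73.9 and 81.9 TPM in young Aβ42+ and 47.5, 44.4, 32.4 and 26.8 TPM in young Aβ42−. In old mice it had 95.04, 153, 38.3 and 85.4 TPM in Aβ42+ and 40.4, 55.6, 30.4 and 40.5 TPM in Aβ42−. The young sorts did not overlap, while the old ones did through old Aβ42+ replicate 3. The difference was -1.02 (SE 0.20, limma, adjusted p = 0.0386) in young mice, with adjusted p = 0.0713 when sister sorts were paired, and the call was lost without any of 7 of the 8 libraries, young Aβ42− replicate 1 excepted. For the old sorts it was -1.01 (SE 0.37, limma, adjusted p = 0.0774), only 0.12 below the median of all genes. It passed with sister sorts paired (limma, adjusted p = 0.0108), a fit in which 47.2% of all genes were called lower.

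Cxcl2, the neighbour of Cxcl1, had a smaller difference. It had 603, 556, 503 and 563 TPM in young Aβ42+ and 476, 421, 447 and 464 TPM in young Aβ42−, without overlap, and was lower in the Aβ42− sort of all 4 young pools (-0.40 to -0.17). The difference of -0.30 (SE 0.09, limma, adjusted p = 0.232) did not pass, but it passed with quantile normalization (adjusted p = 0.0215) and once the background level entered as a covariate (adjusted p = 0.0399). In old mice the sorts had 605, 718, 368 and 526 TPM and 533, 587, 474 and 602 TPM and overlapped. Cxcl2 means were 556 and 452 TPM in the young sorts, beside 68.9 and 12.5 TPM of Cxcl1.

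The promoters of these 3 genes are shown because the genes lie in a cluster, differed unequally between the sorts and all hold matches to the NF-kB consensus, the site of a factor of inflammatory transcription. RefSeq promoters of GRCm38.p6 (mm10), from 250 bases before to 50 after the start site, were found for 36 of the 49 members. The consensus, searched on both strands with overlapping matches allowed, occurred in those of 11 of these 36 members, beside 9.55% of 27025 genes with a promoter (8.46% of 32851 promoters). The windows lie on the plus strand, at chr5:90891135-90891214 for Cxcl1, chr5:90903763-90903842 for Cxcl2 and chr5:90785989-90786068 for Cxcl3, and capitals mark the matches.
Cxcl1: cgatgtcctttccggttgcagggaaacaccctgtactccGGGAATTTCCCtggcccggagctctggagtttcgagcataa
Cxcl2: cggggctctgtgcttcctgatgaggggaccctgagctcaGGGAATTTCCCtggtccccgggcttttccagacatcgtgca
Cxcl3: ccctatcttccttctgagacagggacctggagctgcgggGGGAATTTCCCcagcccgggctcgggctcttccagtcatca
The first match starts 71, 97 and 73 bases before the start site of Cxcl1, Cxcl2 and Cxcl3. Each window holds a match on either strand, so the presence of the consensus does not separate Cxcl1 from its neighbours. The motif and the windows were chosen after the expression values were seen, and a match is a description of the letters only.

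Of the monocyte attractants, Ccl7 was lower in the Aβ42− sort at both ages. It had 454, 328, 339 and 360 TPM in young Aβ42+, 242, 201, 247 and 208 in young Aβ42−, 286, 257, 184 and 280 in old Aβ42+ and 89.0, 42.0, 151 and 102 TPM in old Aβ42−. The sorts did not overlap at either age, and old Aβ42− libraries were the lowest of all. Means were 370 ± 57.5 and 225 ± 23.4 TPM in young (1.65-fold) and 252 ± 46.7 and 96.0 ± 45.0 TPM in old mice (2.62-fold). The difference was -0.71 (SE 0.13, limma, adjusted p = 0.0255) in young and -1.497 (SE 0.35, limma, adjusted p = 0.0338) in old mice, 0.60 below the median of all genes there. The call was lost without any of 4 of 8 libraries in young mice (replicates 2 and 4 of either sort, adjusted p up to 0.0976) and of 5 of 8 in old mice (old Aβ42+ replicates 2 and 4, old Aβ42− replicates 1, 2 and 4, up to 0.108). In old mice it was also lost with TMM or upper quartile factors (limma, adjusted p up to 0.395 over the settings).

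Ccl2, which lies beside Ccl7 and binds the same receptor, differed less. It had 688, 660, 596 and 631 TPM in young Aβ42+ and 468, 474, 499 and 464 TPM in young Aβ42−, a mean 1.35-fold lower. The difference of -0.43 (SE 0.08, limma, adjusted p = 0.0278) passed without overlap, but not with TMM or upper quartile factors (adjusted p up to 1 over the settings) nor with all 16 libraries in the fit, nor in 7 of 8 fits without a library, that without young Aβ42+ replicate 3 excepted. In old mice the sorts had 585, 546, 339 and 531 TPM and 264, 207, 439 and 299 TPM, where replicate 3 was the only pool with more in its Aβ42− sort (-0.75, SE 0.27, limma, adjusted p = 0.0727). Ccl12, the third monocyte attractant of this cluster, overlapped between sorts at both ages.

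Ccl9, a Ccr1 ligand of mice, was lower in the young Aβ42− sort only as far as calls go. It had 275, 226, 218 and 244 TPM in young Aβ42+ and 182, 146, 141 and 141 TPM in young Aβ42− (-0.66, SE 0.12, limma, adjusted p = 0.029), and the call was lost without any of 6 libraries, all but young Aβ42+ replicate 3 and young Aβ42− replicate 1. In old mice it had 264, 308, 104 and 244 TPM and 179, 148, 161 and 122 TPM, with overlap through replicate 3. Ccl6, encoded next to Ccl9 and binding the same receptor, lay on the other side. It had 233, 237, 266 and 190 TPM in young Aβ42+ and 337, 280, 303 and 334 TPM in young Aβ42−, without overlap (0.44, SE 0.12, limma, adjusted p = 0.18). In old mice it had 373, 424, 172 and 309 TPM in Aβ42+ and 424, 463, 380 and 390 TPM in Aβ42−, and it was higher in the Aβ42− sort of each pool.

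**Figure D4:**
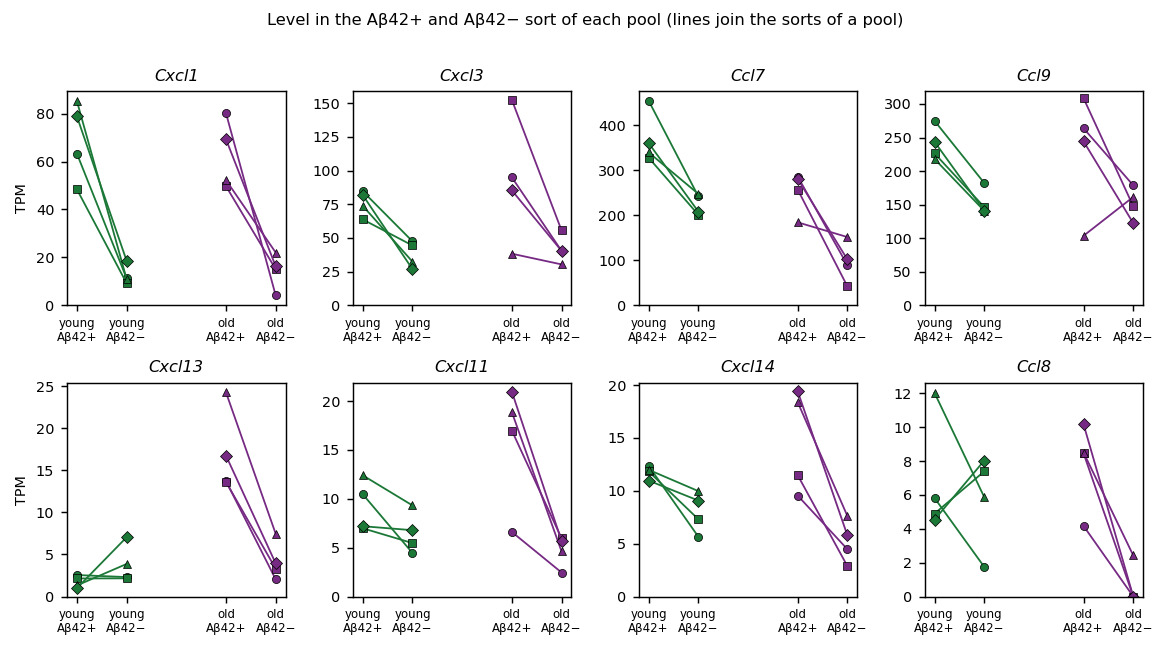
TPM (linear axes from 0) of 8 ligands in the Aβ42+ and Aβ42− sorts of each pool, with lines joining sister sorts and symbols giving the replicate (1 circle, 2 square, 3 triangle, 4 diamond). The line of Cxcl1, Cxcl3, Ccl7, Cxcl11 and Cxcl14 falls in all 8 pools, while that of Ccl9 rises in old pool 3 and Cxcl13 falls in the old pools but not in all young ones.

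Among the Cxcr3 ligands, which interferons induce, Cxcl10 was lower in the young Aβ42− sort. It had 431, 409, 333 and 496 TPM in young Aβ42+ and 329, 277, 215 and 281 TPM in young Aβ42−, a mean 1.51-fold lower. The libraries did not overlap. The difference of -0.60 (SE 0.16, limma, adjusted p = 0.159) did not pass, but it passed with sister sorts paired (adjusted p = 0.0317) and with quantile normalization (adjusted p = 0.0179). In old mice the sorts had 360, 499, 309 and 523 TPM and 333, 464, 336 and 446 TPM and overlapped. Cxcl11, the pseudogene by annotation, had 6.61, 17.0, 18.9 and 21.0 TPM in old Aβ42+ and 2.46, 5.97, 4.62 and 5.69 TPM in old Aβ42− (-1.51, SE 0.41, limma, adjusted p = 0.0446), 0.62 below the median of all genes. The young sorts of Cxcl11 had 10.5, 6.99, 12.4 and 7.20 TPM and 4.46, 5.47, 9.33 and 6.79 TPM. In old mice the call was lost in 6 of 10 other settings and without any of 6 libraries, old Aβ42+ replicate 1 and old Aβ42− replicate 3 excepted.

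Interferon-stimulated genes were listed beside these ligands. Of 16 listed, 5 were called lower in the young Aβ42− sort (Ifit1, Ifit3, Mx1, Usp18 and Rsad2) and 4 in the old (Isg15, Ifit1, Ifit3 and Rsad2). None was called higher, when 0.243% and 8.23% of all genes were called lower. Their median difference was -0.95 in young mice, where that of all genes was 0.04, and -0.69 in old mice, where it was -0.89. Rsad2, an antiviral enzyme, had 106, 115, 130 and 167 TPM in young Aβ42+ and 27.2, 18.9, 26.5 and 41.1 TPM in young Aβ42−. The young sorts of Rsad2 did not overlap.

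Other ligands were called in old mice only. Cxcl13, which attracts B cells, had 13.7, 13.6, 24.2 and 16.7 TPM in old Aβ42+ and 2.04, 3.30, 7.45 and 3.94 TPM in old Aβ42− (-1.87, SE 0.37, limma, adjusted p = 0.0261), without overlap. The young sorts had 2.56, 2.15, 1.32 and 0.996 TPM and 2.31, 2.16, 3.87 and 7.05 TPM. Old Aβ42+ libraries were thus above all 12 others. Cxcl14, a ligand that tissues express at rest, had 9.54, 11.5, 18.4 and 19.4 TPM in old Aβ42+ and 4.47, 2.87, 7.61 and 5.78 TPM in old Aβ42− (-1.35, SE 0.36, limma, adjusted p = 0.0433), 0.46 below the median of all genes. Ccl8, another monocyte attractant of the chromosome 11 cluster, had 4.17, 8.46, 8.502 and 10.2 TPM in old Aβ42+ and was listed at 0 in old Aβ42− replicates 1, 2 and 4, with 2.43 TPM in replicate 3 (-2.64, SE 0.52, limma, adjusted p = 0.0245). These 3 calls were lost in 5 or 6 of 8 fits without a library, in each case without old Aβ42+ replicates 2 and 4 and old Aβ42− replicates 1, 2 and 4, and all were lost with the background level as a covariate (adjusted p = 0.254, 0.485 and 0.26). All 3 were also lost with quantile normalization. The call of Cxcl14 was further lost with TMM or upper quartile factors and with the background level subtracted. Over all 16 libraries the means of these members were 5.25–9.92 TPM. The background level was 1.27, 5.24, 11.6 and 4.98 TPM in old Aβ42+ replicates 1 to 4 and 0.328–2.89 TPM in old Aβ42− libraries. Cxcl13 and Cxcl14 were above it in each old Aβ42+ library, while Ccl8 was below it in replicate 3. In that replicate all 3 were below the 95th percentile limit of 27.9 TPM.

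Pairing the sister sorts left 6 calls in young mice (1.84% of all genes), with Cxcl10 gained and Cxcl3 lost. In old mice it gave 17 calls, all lower in Aβ42−, when 57.9% of all genes were called and 47.2% called lower. Over the 8 pools, 5 ligands were lower in every Aβ42− sort (Ccl7, Cxcl1, Cxcl3, Cxcl11 and Cxcl14), as were 2.95% of all genes. The within-pool difference of Cxcl1 ranged from -3.98 to -1.21 and that of Ccl7 from -2.59 to -0.28. Ccl6 and Ccr7 were higher in every Aβ42− sort, as were 4.78% of all genes.

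Of the receptors, Cxcr4 was higher in the young Aβ42− sort. It had 99.98, 104, 119 and 99.2 TPM in young Aβ42+ and 150, 153, 152 and 154 TPM in young Aβ42−, 1.44-fold higher without overlap. The difference was 0.53 (SE 0.09, limma, adjusted p = 0.0249). It was lost with TMM or upper quartile factors and with quantile normalization, with all 16 libraries in the fit, and without any of 7 libraries, young Aβ42+ replicate 3 excepted. In old mice the sorts had 185, 184, 94.9 and 160 TPM and 180, 198, 208 and 182 TPM and overlapped. The genes most like Cxcr4 over the 16 libraries, among 20298 others, were Slpi, Hp and Plbd1 (Pearson r of log2(TPM + 1) 0.971, 0.965 and 0.963), and the neutrophil and granulocyte precursor markers given above were higher in the same sorts.

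No other receptor was called between the sorts, though some passed in other settings. Cxcr3 had 9.23, 13.2, 20.0 and 10.1 TPM in young Aβ42+ and 21.7, 41.4, 27.0 and 24.6 TPM in young Aβ42−, 2.18-fold higher without overlap (1.09, SE 0.29, limma, adjusted p = 0.163). It passed with the background level as a covariate (adjusted p = 0.0439) and with all 16 libraries in the fit (adjusted p = 0.0489). In old mice Cxcr3 had 19.1–24.1 TPM in Aβ42+ and 21.6–37.7 TPM in Aβ42− libraries, with overlap. NK cells are known to carry Cxcr3, and their markers were higher in the Aβ42− sorts of both ages. What NK cells contributed to Cxcr3 was not tested. Ccr7 had 22.3, 21.1, 21.6 and 21.6 TPM and 37.9, 25.4, 25.3 and 36.0 TPM in the young sorts (0.48, SE 0.18, limma, adjusted p = 0.489). Ccr10 had 17.9, 22.5, 45.2 and 18.8 TPM in old Aβ42+ and 11.002, 16.1, 15.1 and 17.5 TPM in old Aβ42− (-0.68, SE 0.31, limma, adjusted p = 0.113), 0.21 above the median of all genes. Of the low receptors in old mice, Ccr3 and Ccr9 passed as higher in Aβ42− with the background level subtracted (limma, adjusted p = 0.0266 and 0.0347). Ccr4 and Ccr8 passed as lower with sister sorts paired (limma, adjusted p = 0.0164 and 0.0479) and without old Aβ42+ replicate 1 (0.0428 and 0.0493). Ccr3, Ccr4 and Ccr9 lie outside the naming rule.

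Age was compared in each sort, with the same young and old pools behind both comparisons and the same libraries as the uptake comparisons, so these results are not independent of each other. In the Aβ42+ sort, none of 47 members tested was called by limma, when 0.0268% of all genes were. An unadjusted p under 0.05 was found for 6 members and for 3096 of the 33578 genes tested. Groups did not overlap for 7 members (5.5% of all genes), with Cxcl13 higher (2.85%) and 6 ligands lower (2.65%) in old mice. Cxcl13 had a mean of 17.1 ± 4.99 TPM in old and 1.76 ± 0.722 TPM in young Aβ42+ libraries, a 9.73-fold difference (2.72, SE 0.37, limma, adjusted p = 0.109). Each old Aβ42+ library was at least 13.6 TPM and no young one was above 2.56 TPM. It passed when all 16 libraries shared the estimate of spread (adjusted p = 0.0258), and adjusted p ran from 0.0258 to 0.186 over the other settings and from 0.0549 to 0.746 without a library. B cell markers, as a sum, were 65.5–192 TPM in old and 16.3–52.7 TPM in young Aβ42+ libraries. In the Aβ42− libraries, where Cxcl13 was at 2.04–7.45 TPM in old mice, they were 107.5–339 TPM in old and 41.7–116 TPM in young mice. None of the 4 B cell markers tested was called by limma in either age comparison. The sum of 192 TPM was that of old Aβ42+ replicate 3, the library with the highest background level.

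The 6 lower ligands were all CC chemokines but for Cxcl16. Ccl12 had 268, 208, 155 and 188 TPM in young Aβ42+ and 121, 77.9, 68.9 and 136 TPM in old Aβ42+, 2.03-fold lower (-1.04, SE 0.26, limma, adjusted p = 0.416). Ccl7 was 1.47-fold lower (-0.56, SE 0.19), Ccl2 1.29-fold (-0.39, SE 0.20), Cxcl16 1.28-fold (-0.38, SE 0.17), Ccl4 1.23-fold (-0.30, SE 0.14) and Ccl3 1.20-fold (-0.26, SE 0.15), with adjusted p of 0.47 to 0.599. The median of all genes was 0.38 in this comparison. Microglia markers were lower in the same libraries, with 1381–2148 against 2408–2863 TPM. Without old Aβ42+ replicate 3, Ccr1 was the only member called (0.85, adjusted p = 0.0362). With that library its difference was 0.51 (adjusted p = 0.603), as Ccr1 had 97.9 TPM there and 240–271 TPM in the other old Aβ42+ libraries.

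In the Aβ42− sort, 1 of 48 members tested was called, when 2.15% of all genes were (1.73% higher). This was Ccr1, with 162, 125, 124 and 118 TPM in young and 264, 286, 193 and 230 TPM in old Aβ42− libraries. The groups did not overlap, and the mean was 1.84-fold higher in old mice (0.87, SE 0.15, limma, adjusted p = 0.039). The median of all genes was -0.56, so Ccr1 stood 1.42 above it. The call was lost with TMM factors, with the background level as a covariate and with all 16 libraries in the fit (adjusted p up to 0.122), and without any of 6 libraries (young Aβ42− replicates 2, 3 and 4, old Aβ42− replicates 1, 2 and 4, adjusted p up to 0.157). Monocyte markers were 1234–1464 TPM in old and 1006–1227 TPM in young Aβ42− libraries, and granulocyte precursor markers 1676–2865 and 1044–1767 TPM. No marker of either list was called in this comparison. Microglia and NK cell markers were lower in old Aβ42− libraries, as the sums given above show. The genes most like Ccr1 over the 16 libraries were Csf2rb (r = 0.969), AI662270 (0.967) and Tmem43 (0.963).

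Groups did not overlap for 7 members in this comparison (11% of all genes). Ccl7 was 2.34-fold lower in old mice (-1.35, SE 0.32, limma, adjusted p = 0.0592), Ccl2 1.58-fold lower (-0.71, SE 0.19, limma, adjusted p = 0.0828) and the low-level ligand Ccl1, outside the naming rule, had 1.57–2.46 TPM in old and 3.56–9.97 TPM in young libraries (-1.36, SE 0.38, limma, adjusted p = 0.0847). Ccl6 was 1.32-fold higher (0.40, SE 0.10, limma, adjusted p = 0.0706), Cxcl10 1.43-fold higher (0.51, SE 0.16, adjusted p = 0.113) and Cxcr4 1.26-fold higher (0.33, SE 0.09, adjusted p = 0.0826). Ccl12 had 193, 162, 174 and 148 TPM in young and 74.0, 39.5, 150 and 71.8 TPM in old Aβ42− libraries, where replicate 3 overlapped with the young ones (-1.16, SE 0.33, limma, adjusted p = 0.0887). Ccl8 had 1.76, 7.39, 5.88 and 8.03 TPM in young Aβ42− and was at or near 0 in old ones, as given above (-2.18, SE 0.56, limma, adjusted p = 0.0716).

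Set side by side, the monocyte attractants Ccl2, Ccl7 and Ccl12 had lower means in old than in young mice in both sorts. Ccl6, Ccr1 and Cxcr4 had higher means in old mice in both. The median difference of all genes was 0.38 in the Aβ42+ and -0.56 in the Aβ42− sort. Less these medians, the differences of Ccl6, Ccr1 and Cxcr4 were 0.01, 0.13 and 0.13 in the Aβ42+ sort, where their groups overlapped. In the Aβ42− sort they were 0.96, 1.42 and 0.89. Those of Ccl2, Ccl7 and Ccl12 were -0.78, -0.95 and -1.425 in the Aβ42+ and -0.15, -0.79 and -0.60 in the Aβ42− sort. Under TMM factors over all genes the difference of Ccl6 in the Aβ42+ sort changed sign, to -0.02, while the others of these genes kept theirs under each of 5 scalings. The lowest Ccl7 was reached in cells that were both old and Aβ42−. Whether the uptake difference itself changed with age was tested as an interaction. None of 49 members was called there by limma, when 0.0116% of all genes were. An unadjusted p under 0.05 was found for 4 members and for 6928 of the 34492 genes tested. The largest interaction term was that of the low-level Ccl1 (-2.98, SE 1.05, limma, adjusted p = 0.247), which was listed at 0 in 3 of 16 libraries. It was followed by those of Cxcl13 (-2.61, SE 0.56, limma, adjusted p = 0.247) and Ccl8 (-2.39, SE 0.71, limma, adjusted p = 0.247). Those of Cxcl11 (-1.06, SE 0.51) and Cxcl14 (-0.82, SE 0.41) were near the median of all genes of -0.88. With sister sorts paired, 8 members were called, when 36.9% of all genes were called. They were Cxcl13 (adjusted p = 0.0112), Ccl8 (0.0223), Cxcl11 (0.0276), Cxcl14 (0.0484) and the low members Ccl1, Ccr4 and Cxcl12 with a negative term (31.6% of all genes), and Cxcl10 (0.0307) with a positive one of 0.52 (5.32%).

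Many low members followed the background level of the library. As a description over 16 libraries, in which both values come from the same library, Pearson r between log2(TPM + 1) and log2 of the background level was 0.963 for Ccr4, 0.951 for Cxcl12, 0.946 for Ccl28 and 0.926 for Cxcl5. It was 0.787 for Ccl8, 0.715 for Cxcl14 and 0.704 for Cxcl11. It was 0.439 for Cxcl1, 0.399 for Cxcl13, 0.39 for Ccl7, -0.322 for Cxcr4 and -0.519 for Ccr1. These values also hold the differences between groups. With group means removed, r was 0.782 for Ccl8, 0.639 for Cxcl14, 0.616 for Cxcl11, 0.467 for Cxcl13 and 0.332 for Cxcl1. It was -0.00727 for Ccl2, -0.0499 for Ccl7, -0.165 for Cxcr4, -0.491 for Cxcl3, -0.551 for Ccl9 and -0.565 for Ccr1. What the background contributed to the calls was not tested.

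**Figure D5:**
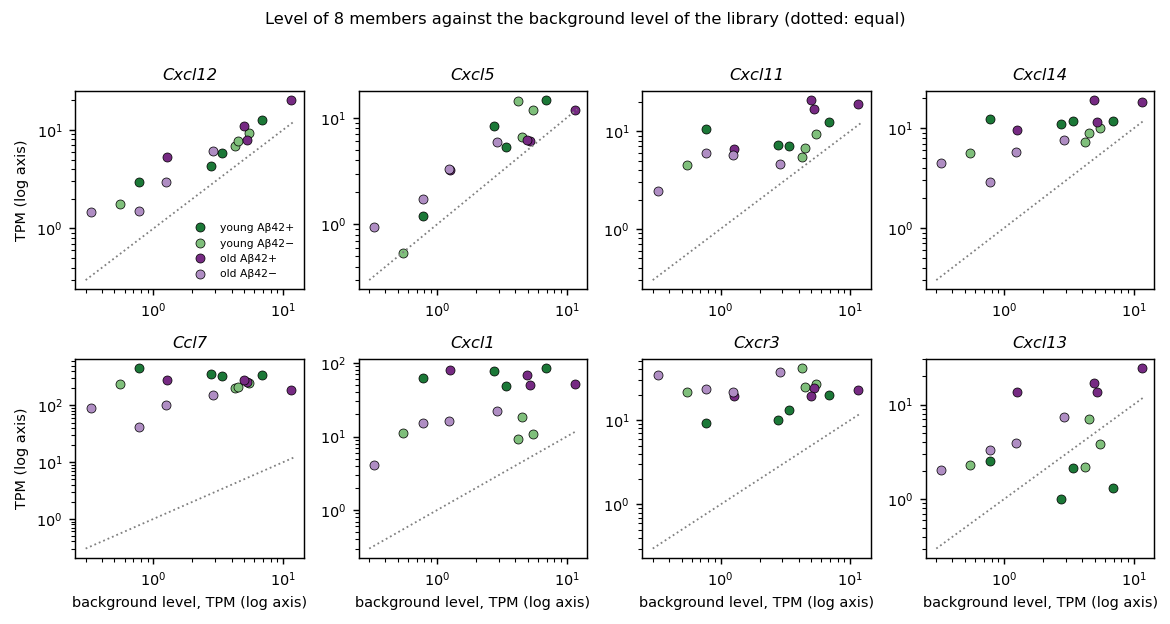
Level of 8 members against the background level of the same library, both in TPM on log axes, with 1 point per library coloured by group and a dotted line where both are equal. The members were chosen after their values were seen. Cxcl12 and Cxcl5 run along the dotted line, whereas Ccl7 stays at 42.0–454 TPM and the Aβ42+ and Aβ42− libraries of Cxcl1 form separate bands.

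Chemokine genes named otherwise were listed for comparison, 11 in all. Xcl1, a chemokine of NK and T cells, was higher in the Aβ42− sorts. It had 3.95, 14.95, 9.19 and 4.62 TPM in young Aβ42+ and 156, 92.8, 50.9 and 120 TPM in young Aβ42− (3.58, SE 0.44, limma, adjusted p = 0.00348), and 14.2 against 83.2 TPM by means in old mice (2.64, SE 0.44, limma, adjusted p = 0.0163). Pf4, a platelet chemokine that border macrophages also express, was lower in the Aβ42− sorts. By group means it had 35.3 and 8.79 TPM in young (-1.93, SE 0.26, limma, adjusted p = 0.00646) and 33.9 and 5.01 TPM in old mice (-2.98, SE 0.75, limma, adjusted p = 0.0394). Ccrl2, a non-signalling receptor, was called higher in the young Aβ42− sort, with 69.7 and 121 TPM (0.79, SE 0.15, limma, adjusted p = 0.0313). Cx3cr1, the fractalkine receptor of microglia, had means of 250 TPM (Aβ42+) and 206 TPM (Aβ42−) in young and of 180 TPM (Aβ42+) and 126 TPM (Aβ42−) in old mice and was called in none of the comparisons. The atypical receptors Ackr1 to Ackr4 had group means of 0.984–9.503 TPM and were not called.

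Downstream of the receptors, 21 of 23 listed signalling genes were in the table. Rgs18, a regulator of G protein signalling, and Rac2, a GTPase of leukocyte migration, were called higher in the Aβ42− sorts of young and old mice. Both were also called higher in old against young Aβ42− libraries. Of all genes, 1.43%, 4.74% and 1.73% were called higher in these comparisons. Arrb2, Grk6, Pik3cg and Plcb2 were called higher in old Aβ42− against old Aβ42+ as well, which makes 6 of 21 (4.74% of all genes). Rac2 had 171, 152, 137 and 143 TPM in young Aβ42+ and 355, 306, 335 and 344 TPM in young Aβ42− (1.15, SE 0.10, limma, adjusted p = 0.000542). Of the 17 genes of the NF-kB pathway and its early targets, Il6 was the only one called, higher in old Aβ42− than in old Aβ42+ (0.91, SE 0.26, limma, adjusted p = 0.0491), with a median of the list of -0.10 in young and 0.23 in old mice beside medians of all genes of 0.04 and -0.89. Of 12 immediate early genes, which dissociation raises, none was called by limma in any comparison, and their sum was 7964–8641 TPM in young Aβ42+, 7500–8819 in young Aβ42−, 5634–7370 in old Aβ42+ and 5708–8020 in old Aβ42− libraries. Of 11 disease-associated microglia genes, Apoe and Clec7a were called lower in young Aβ42− (0.243% of all genes), Apoe lower (8.23%) and Cst7 higher (4.74%) in old Aβ42−, and Spp1 and Clec7a higher in old against young Aβ42− libraries (1.73%).

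The genes most like the called ligands over the 16 libraries were again of mixed kinds. For Cxcl1 they were Procr (r = 0.926), Flrt3 (0.917) and the scavenger receptor Cd36 (0.917). For Ccl7 they were Sdc4 (0.975), Fkbp1a (0.974) and Tnfsf12 (0.97), and for Ccl2 the lysosomal genes Ctsa (0.974) and Ctsb (0.971) with Rcan1 (0.973) between them. For Cxcl3 they were Gm33858 (0.934), Ifi204 (0.932) and 2310022A10Rik (0.928). For Ccl8 and Cxcl14, at low levels, r reached 0.961 with Haglr and 0.949 with Chst2, and for Cxcl13 it did not exceed 0.821, with Rps21.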

How the data were processed

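Bulk RNA was measured in 16 libraries, 4 for each age and sort, grouped by the sample descriptions. The members and gene lists were chosen with earlier results of these data known. The deposited values are TPM, which the authors made from reads trimmed with Trim Galore 0.4.2 and cutadapt 1.9.1, checked with FastQC 0.11.5, aligned with STAR 2.5.2a to mm10, stripped of duplicates with Picard 1.89 and counted with featureCounts. The versions come from the submitters' processing notes, and the use of strand in counting is not given in the sources used here. Removing duplicates of single-end reads keeps at most 1 read per start position, which can compress abundant genes such as Ccl3, and its effect was not tested. TPM keep no depth, so the depth is unknown. The study tested read counts, whereas the deposited TPM were tested here as log2(TPM + 1) with limma 3.58.1 in R 4.3.3, with a trend of the variance on the mean.

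Genes with 1 TPM or more in 4 or more of the compared libraries entered each fit. A call is an adjusted p (Benjamini-Hochberg, all genes tested) of at most 0.05, two-sided. Comparisons were Aβ42− against Aβ42+ at each age, old against young in each sort, and the interaction. Text names the members called in any comparison, the 15 ligands and 8 receptors with the highest mean among those followed, those with a mean of at least 5 TPM in a comparison whose groups did not overlap, neighbours of these in level, and any others where stated. The background level, its 95th percentile limit, the within-pool counts, the promoter motif and the members drawn in the plots of pools and of background were chosen after the values were seen. Libraries of the same number and age are sorts of the same pool by title. Residuals of such sister sorts correlated across genes at 0.437 to 0.635 for replicates 1 and 3 and at -0.0441 to 0.0555 for replicates 2 and 4. Same-numbered young and old libraries, which come from different pools, correlated to a like degree (0.413 to 0.593 and -0.0622 to 0.0318), so these values do not set sister sorts apart. In each group the background level was lowest in replicate 1 and highest in replicate 3. What same-numbered libraries of different pools have in common was not tested. Nothing else ties the libraries of a group to separate animals, so p-values measure the spread between these samples. Alternatives were other scalings (TMM factors, upper quartile factors, quantile normalization), other filters, 0.1 TPM as pseudocount, the replicate block, the background level subtracted or as a covariate, all 16 libraries in the fit, and each library left out. Fits were tested on simulated data, where larger changes were recovered more often than smaller ones. A first criterion on the share recovered was missed for the old uptake comparison and was replaced after that was seen. Symbols of the name pattern that were left out are not reported here.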

Additional observations from a re-analysis of the deposited data

Results flagged for a closer look

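In 8 of 100 groups of 4 libraries examined over the 25 named members, the highest or lowest library stood apart from the other 3 by Dixon's criterion, where chance gives about 5%, or 5 groups. In old Aβ42+ replicate 3, Ccl4 was lowest at 484 TPM (others 556–562), Cxcl16 lowest at 176 TPM (others 263–273) and Ccr10 highest at 45.2 TPM (others 17.9–22.5). This library also had the highest background level, 11.6 TPM. In young Aβ42− replicate 1, Ccl9 was highest at 182 TPM (others 141–146), Ccr1 highest at 162 TPM (others 118–125) and Ccr10 lowest at 6.75 TPM (others 18.2–20.0), in the library with the lowest background level of its group, 0.549 TPM. Ccr10 was highest in young Aβ42+ replicate 3 at 36.4 TPM (others 7.96–11.4). Ccl8 was highest in old Aβ42− replicate 3 at 2.43 TPM, with the others listed at 0.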

How the results depend on the processing

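Counts of members called moved with the processing, and the cause was not tested. With age, in the Aβ42+ sort, the count was 0, and 1 (Cxcl13) with all 16 libraries in the fit (0.0923% of all genes called). It was 0 to 1 without a library, with Ccr1 called without old Aβ42+ replicate 3 (0.135%). With age in the Aβ42− sort it was 1 (2.15% of all genes called), against 0 with TMM factors (0.0502%) or the background as a covariate (0.0813%). It was 2 with all 16 libraries (3.2%) and 3 with quantile normalization (3.26%). It was 5 with a mean of at least 5 TPM (10.8%) or the background subtracted (7.81%). With the replicate block, which joins young and old libraries of different pools by number, it was 7 (12.2%). It was 0 to 18 without a library: 18 without young Aβ42− replicate 1 (42% of all genes called), 12 without old Aβ42− replicate 3 (14.5%) and 0 without any other (0% to 0.0537%). Between the young sorts it was 6 (1.67% of all genes called), against 1 with TMM factors (0.504%) and 2 with all 16 libraries (1.54%). It was 4 with upper quartile factors (1.49%), 7 with quantile normalization (2.14%) and 8 with the background as a covariate (3.2%). It was 1 to 5 without a library, with 0.966% to 1.94% of all genes called (1 or 2 members without Aβ42+ replicates 1, 2 and 4 or Aβ42− replicates 2, 3 and 4). Between the old sorts it was 6 (13% of all genes called), against 0 with the background as a covariate (0.0463%). It was 2 with TMM factors (6.61%) or quantile normalization (1.83%) and 3 with upper quartile factors (9.26%). It was 10 with all 16 libraries (23.6%) and 17 with sister sorts paired (replicate block, 57.9%). It was 0 to 17 without a library: 17 without old Aβ42+ replicate 1 (55.1%) and 1 without old Aβ42− replicate 1 (0.297%). It was 0 without Aβ42+ or Aβ42− replicates 2 and 4, with 0.217% to 0.546% of all genes called. For the interaction it was 0, and 8 with sister sorts paired (36.9% of all genes called), and 0 without any library (0% to 0.0349%). Of the 125 differences of the 25 named members, 41 changed sign under at least 1 of 5 scalings (26 with TMM factors, 17 with quantile normalization), none of them a called one. For the 47 differences followed through every alternative (those called, without overlap, or otherwise singled out), the interaction of Cxcl14 changed from -0.82 to 0.14 with quantile normalization and no other value reversed, while 725 values kept their side of the threshold, 105 lost it and 46 gained it. Low members lie near the background level, and TPM give no depth to set a limit of detection.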
